A study of Mus musculus with 4 samples.

Results

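Olfr110, Olfr111 and Lilrb4a are 3 receptor genes that were followed across the cell types of the cerebral cortex in GCLC-KO mice. They were chosen by symbol, as 3 of the 32285 gene rows, because earlier work on these same libraries found their transcripts concentrated in the microglia that carry disease-associated microglia (DAM) markers. The difference between DAM-like and other microglia is therefore given for them as a description, without a test. Single-nucleus RNA sequencing, which counts unique molecular identifiers (UMIs, 1 per captured transcript), was performed on nuclei of 4 mice, with 1 library per mouse. The mice carried a floxed Gclc allele (C57BL/6NTac-Gclctm1a(EUCOMM)Wtsi/WtsiCnbc) together with a CaMKII-Cre transgene, which acts in neurons, so the microglia themselves were not the target of the deletion. The younger pair of mice was 3 months old (libraries 3M-1, 3M-2), the older pair 6 months old (6M-1, 6M-2), and all received no treatment. They were assigned by the labels to batch 1 (3M-1 and 6M-1) or batch 2 (3M-2 and 6M-2). Where 4 values follow each other, they belong to these libraries with the younger mice first and replicate 1 before replicate 2 at each age. No wild-type library was analysed here.

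Gclc encodes the catalytic subunit of the enzyme that starts glutathione synthesis, and neurons that lack it are exposed to oxidative stress. Microglia, the resident macrophages of the brain, answer neuronal damage by lowering homeostatic genes and raising a shared DAM program. Olfactory receptors are G protein-coupled receptors named for their role in odour-sensing neurons of the nose, where they act through a stimulatory G protein and adenylyl cyclase. Lilrb4a belongs to the leukocyte immunoglobulin-like receptors. Its cytoplasmic tail carries immunoreceptor tyrosine-based inhibitory motifs (ITIMs), which recruit phosphatases and dampen signals from activating receptors that use the opposite, ITAM, motif.

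The olfactory receptor genes are neighbours on chromosome 17 and are near copies of each other. In the GENCODE M21 annotation of GRCm38, Olfr110 (ENSMUSG00000090894) lies on the plus strand at chr17:37492468-37500207 and Olfr111 (ENSMUSG00000090675) at chr17:37508030-37532449. Each has its whole coding sequence in 1 exon, at 37498653-37499603 and 37529979-37530929 without the stop codon. Lilrb4a (ENSMUSG00000112148) lies on the plus strand of chromosome 10 at chr10:51490956-51496611, 4253 bases from its close relative Lilr4b. Over 954 aligned coding bases, 936 were identical between Olfr110 and Olfr111 (98.1%), with the longest identical run at 440 bases. Lilrb4a and Lilr4b were identical at 874 of 910 aligned coding bases (96.0%). The coding stretches in which each pair differs most are shown. Reads from within the coding sequence can be given to a single gene of the pair only where such differences are covered. Capitals mark the bases that differ within a pair, over coding bases 787 to 876 for the olfactory receptors and, in the alignment, 212 to 301 for the Lilr genes, from the GENCODE M21 transcripts.

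Olfr110: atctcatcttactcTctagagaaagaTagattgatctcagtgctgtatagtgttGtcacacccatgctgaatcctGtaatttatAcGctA
Olfr111: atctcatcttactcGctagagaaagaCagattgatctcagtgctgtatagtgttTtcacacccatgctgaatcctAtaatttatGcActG
Lilrb4a: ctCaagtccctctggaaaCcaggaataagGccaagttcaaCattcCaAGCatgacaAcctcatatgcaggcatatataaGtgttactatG
Lilr4b: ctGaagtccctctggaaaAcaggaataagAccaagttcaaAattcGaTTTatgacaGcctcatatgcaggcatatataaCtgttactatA

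The libraries were made from the 3′ ends of transcripts, so the last 500 bases of each coding transcript were searched for 31-base words that also occur anywhere in the transcripts of the paired gene. None of the words from Olfr110 ends occurred in an Olfr111 transcript, and 22.6% of those from Olfr111 ends occurred in an Olfr110 transcript. Of the words from Lilrb4a ends, 40.4% occurred in a Lilr4b transcript, and of those from Lilr4b ends 27.1% occurred in a Lilrb4a transcript. Counts are therefore uncertain within each pair. The antisense gene Gm40645 covers Lilrb4a on the other strand.

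The start regions of both olfactory receptor genes are shown because levels of both genes were higher in nuclei with more DAM marker UMIs, as described further on. They run from 250 bases before to 50 bases after the RefSeq start (GRCm38.p6, plus strand), with the start base in capitals. The RefSeq start of Olfr111 lies next to its coding exon, whereas GENCODE models place the first exon of that gene further upstream.

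Olfr110 (chr17:37492218-37492517): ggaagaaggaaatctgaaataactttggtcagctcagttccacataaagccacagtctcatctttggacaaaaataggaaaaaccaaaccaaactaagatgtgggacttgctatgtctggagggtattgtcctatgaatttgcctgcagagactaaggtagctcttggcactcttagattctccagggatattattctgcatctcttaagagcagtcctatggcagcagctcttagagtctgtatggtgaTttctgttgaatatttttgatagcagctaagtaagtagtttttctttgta
Olfr111 (chr17:37529707-37530006): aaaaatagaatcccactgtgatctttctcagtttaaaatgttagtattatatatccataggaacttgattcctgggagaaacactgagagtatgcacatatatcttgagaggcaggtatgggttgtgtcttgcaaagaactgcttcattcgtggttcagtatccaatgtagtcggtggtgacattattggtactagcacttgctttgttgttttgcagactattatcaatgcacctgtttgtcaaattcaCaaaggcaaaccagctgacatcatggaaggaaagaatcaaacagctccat

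Of 5 short motifs searched on both strands, none was found in either window. GGAAGT, a longer form of the ETS factor site, was present in 23.8% of 32851 RefSeq promoters of this length. The others were TGANTCA of AP-1 (7.81%), CACGTG, an E-box (7.15%), TGACNNNGC of the antioxidant response element (12.4%), and TTGCNNAA of C/EBP factors (10.8%). The shorter ETS core GGAA, which was not among the motifs searched, occurs in both windows.

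Of 30784 deposited nuclei, 30515 passed the filters, and 2063 of them were microglia-like by a gate on marker genes. The libraries held 63429297 to 71255054 UMIs each, and the median microglia-like nucleus held 1465 to 2212 UMIs. Microglia-like nuclei with at least 15 UMIs of DAM markers such as Lpl, Itgax and Cst7 per 10000 and at least 3 in all were called DAM-like. They numbered 87, 45, 139 and 104, or 375 in total, against 1688 other microglia, and 197 nuclei with 10 to 25 such UMIs per 10000 lay near this cut. The gated class, like the other microglia, held UMIs of all 15 microglia markers and all 19 DAM markers. Its summed DAM marker level was 4010 CPM (UMIs of the named genes per 1000000 UMIs of the class), against 398 in other microglia. The DAM markers set the gate, so this gap was fixed in advance and does not test the class. The homeostatic markers, which the gate did not use, summed to 1803 CPM against 3182. Markers of perivascular macrophages, monocytes and T cells summed to 31.7, 5.86 and 8.21 CPM in DAM-like nuclei. Gclc stood at 35.1 to 43.5 CPM over all nuclei of each library, and which exons these UMIs cover was not tested. Pairs of libraries shared 12 to 19 cell barcodes.

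All 3 genes were higher in DAM-like than in other microglia in every library. Olfr110 was measured in DAM-like microglia at 85.3, 94.6, 58.0 and 49.6 CPM, from 19, 9, 17 and 12 UMIs. In other microglia of the same libraries it stood at 9.83, 14.7, 4.97 and 10.6 CPM. The lowest DAM-like value was thus above the highest other value, although each rested on few UMIs. The mean was 71.9 ± 21.5 CPM (SD, n = 4) against 10.0 ± 4.0 CPM (SD, n = 4), and the within-library difference averaged 2.89 ± 0.57 on the log2 scale (SD, n = 4), or 7.42-fold.

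Olfr111, the more deeply counted of the olfactory pair, stood at 525, 379, 201 and 310 CPM in DAM-like microglia. In other microglia it stood at 108, 88.3, 76.5 and 94.7 CPM. The groups did not overlap, and Olfr111 in the other microglia stayed well above its level in neurons, oligodendrocytes and astrocytes. The averages were 354 ± 136 and 91.9 ± 13.2 CPM (SD, n = 4 each), a log2 difference of 1.87 ± 0.40 (SD, n = 4), or 3.66-fold.

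Lilrb4a was found at 602, 936, 706 and 669 CPM in DAM-like microglia, from 89 to 207 UMIs. Its levels in other microglia were 50.4, 86.2, 148 and 85.1 CPM. Here too the groups did not overlap, with 6M-1 the highest library among other microglia. Averages were 728 ± 145 and 92.4 ± 40.6 CPM (SD, n = 4 each), and the log2 difference was 3.06 ± 0.60 (SD, n = 4), or 8.35-fold. Such a non-overlap of DAM-like above other microglia in all 8 sums occurred in 485 of 7152 genes tested (6.78%). Because the genes were chosen for this contrast, nothing is read from that count.

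**Figure D1:**
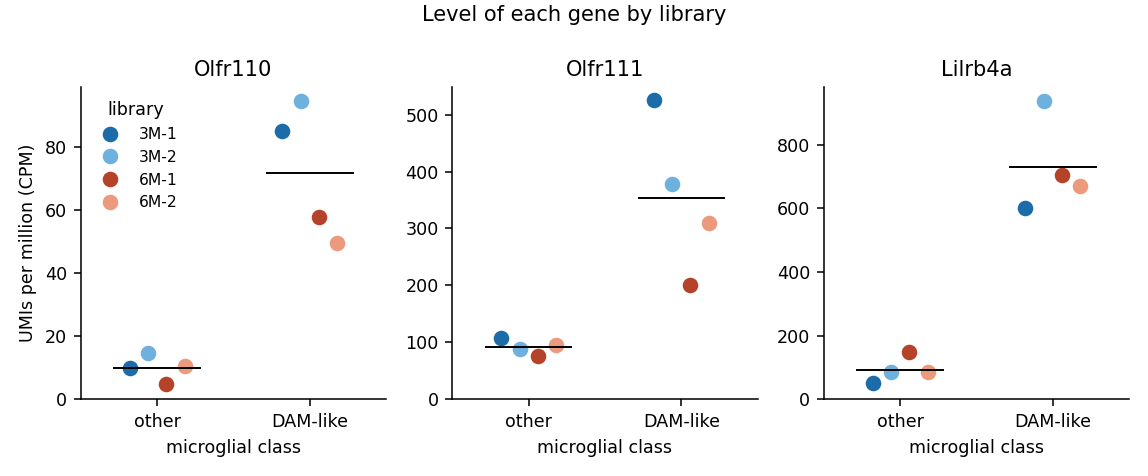
Level of Olfr110, Olfr111 and Lilrb4a (CPM, linear axis from 0) in the 4 libraries, in other and in DAM-like microglia, with each point a library and each horizontal line the mean of 4. For each gene every DAM-like value lies above every value of the other microglia, with means of 71.9 against 10.0 CPM, 354 against 91.9 CPM and 728 against 92.4 CPM.

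The DAM-like class was enriched for these transcripts but did not hold all of them. Over all kept nuclei it held 34.8% of Olfr110, 29.7% of Olfr111 and 42.4% of Lilrb4a UMIs, at 0.34% of all UMIs. The same shares were 18.3%, 30.6% and 22.3% in other microglia. Excitatory neurons, with 63.2% of all UMIs, held 23.8%, 20.7% and 9.03%. The 7071 nuclei left unassigned by the gates held 15.9%, 13.03% and 14.8%, and 178 labelled mixed held 1.83%, 1.86% and 2.94%. Within microglia the DAM-like class contributed 16.7 to 22.6% of the UMIs of a library. Of the microglial Olfr111 UMIs it held 57.1%, 46.2%, 43.4% and 45.7%. The corresponding shares were 54.5 to 77.3% for Olfr110 and 58.1 to 76.6% for Lilrb4a. The Olfr111 share depended on where the class was drawn, and so did the size of the class. With the looser cut of 10 DAM marker UMIs per 10000 the class held 19.6 to 29.4% of microglial UMIs and 51.2 to 62.9% of microglial Olfr111 UMIs. When the class was instead taken as a cluster of microglia led by DAM markers (286 nuclei, 213 of them also in the gate), its size varied more. It held 11.5 to 26.9% of microglial UMIs and 32.4 to 71.2% of microglial Olfr111 UMIs. Both lower ends came from 6M-1 and both upper ends from 3M-1. Olfr111 stood at 294 to 524 CPM inside this cluster and at 77.9 to 106 CPM outside it. A different cluster of 402 nuclei was led by Dkk2, a DAM marker of the gate, but was not taken as DAM-like. It had 1 DAM marker among its top-ranked genes, against 14 in the cluster taken, and its share of the gated class was not examined.

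Detection per nucleus was also higher in the DAM-like class. At least 1 Olfr110 UMI was present in 43 of 375 DAM-like nuclei (11.5%), an Olfr111 UMI in 159 (42.4%) and a Lilrb4a UMI in 215 (57.3%), at a median depth of 2064 UMIs. Among other microglia, at a median of 1789.5 UMIs, the shares were 1.66%, 11.7% and 11.02%. In oligodendrocytes, which served as a type that should lack these genes, they were 0.0669%, 0.290% and 0.491% at a median of 2140 UMIs. The most UMIs of Lilrb4a in any DAM-like nucleus was 17, against 4 for Olfr110 and 6 for Olfr111.

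The levels were higher the more DAM marker UMIs a nucleus held, and did not form a single step at the gate. With microglia-like nuclei grouped by DAM marker UMIs (0, 1, 2, 3 to 4, 5 to 8, and 9 or more), Olfr110 stood at 4.53, 13.8, 17.3, 19.7, 34.6 and 89.9 CPM. Over the same groups Olfr111 stood at 59.5, 86.0, 166, 170, 252 and 412 CPM. Lilrb4a went from 38.8 over 118, 189, 323 and 460 to 829 CPM. Over the pooled nuclei every gene was higher in each group than in the one before. Within each library every gene was lowest at 0 and highest at 9 or more UMIs, but the order between them did not hold, as for Lilrb4a in 3M-2, at 987 CPM with 3 to 4 and 470 CPM with 5 to 8 UMIs. The Poisson intervals of neighbouring pooled groups often overlapped, as for Olfr111 at 2 and at 3 to 4 UMIs. Median depth was 1661 UMIs in the lowest group and 2667 in the highest, and deeper nuclei can reach a higher marker UMI count, so its part in the order was not tested.

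**Figure D2:**
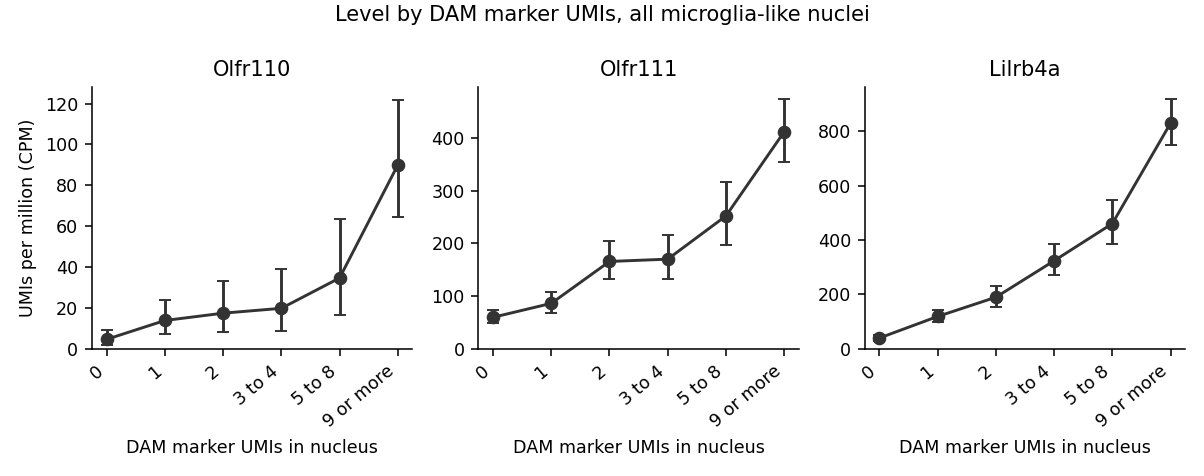
Level of the 3 genes (CPM, linear axis) in microglia-like nuclei of all 4 libraries, grouped by the number of DAM marker UMIs in the nucleus; bars are exact 95% Poisson intervals, which cover counting error only. Olfr110 rises from 4.53 to 89.9 CPM, Olfr111 from 59.5 to 412 CPM and Lilrb4a from 38.8 to 829 CPM.

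Interferon-responsive microglia are another state described in neurodegeneration, so interferon-high nuclei (at least 10 UMIs of interferon-induced markers per 10000) were set apart within each class. Among DAM-like nuclei, the 59 interferon-high ones held Olfr110 at 68.3, Olfr111 at 369 and Lilrb4a at 717 CPM. The 316 remaining ones held 66.5, 330 and 689 CPM, and the Poisson intervals overlapped for each gene. Outside the DAM-like class Lilrb4a stood at 146 CPM (Poisson 95% interval 112 to 187) in 208 interferon-high nuclei and at 88.4 CPM (77.7 to 100.1) in the other 1480, so these intervals did not overlap. Olfr111 stood at 112 and 88.4 CPM and Olfr110 at 13.9 and 8.56 CPM in the same nuclei, with overlapping intervals. These are pooled nuclei of 4 mice, and the intervals cover counting error only. The libraries held 41, 39, 121 and 66 interferon-high microglia, and 6M-1, with the most, also had the highest Lilrb4a level in other microglia, so the mix of libraries enters this gap and its part was not tested.

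In single DAM-like nuclei, detection of a gene went with a higher detected share of the others. Olfr110 was detected in 18.9% of nuclei with an Olfr111 UMI and in 6.02% of those without. Lilrb4a was detected in 66.0% and 50.9% of the same nuclei. Other microglia with and without an Olfr111 UMI showed the same direction, at 5.56% and 1.14% for Olfr110 and 22.2% and 9.53% for Lilrb4a. DAM-like nuclei with an Olfr111 UMI were also deeper (median 2516 against 1861 UMIs). The part of depth, and that of the near-identical Olfr110 and Olfr111 sequences, was not tested. None of the 3 genes was detected in 102 DAM-like nuclei (27.2%), exactly 1 in 148, 2 in 106 and all 3 in 19 (5.07%). Among other microglia 1336 of 1688 nuclei (79.1%) held none and 7 (0.415%) held all 3.

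Across the remaining cell types the olfactory receptors and Lilrb4a parted in the macrophages. The 32 macrophage nuclei, gated by perivascular markers such as Mrc1, gave 0 Olfr110 and 0 Olfr111 UMIs among 70914 UMIs, which allows a level of up to 42.3 CPM for each. That limit is below the Olfr111 level of other microglia, but above their Olfr110 level, so an absence of Olfr110 was not detectable at this depth. Lilrb4a stood at 606 CPM in macrophages (Poisson 95% interval 439 to 817, from 43 UMIs), with a UMI in 20 of 32 nuclei (62.5%). By library it stood at 992, 632, 526 and 265 CPM, from 24, 2, 11 and 6 UMIs in 8, 2, 11 and 11 nuclei. A single nucleus held 13 of the UMIs. The pooled interval, which covers counting error only, included the pooled DAM-like level of 694 CPM, so these levels could not be ordered.

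Neurons, oligodendrocytes and astrocytes were far lower. In excitatory neurons Olfr110, Olfr111 and Lilrb4a stood at 0.246, 1.26 and 0.794 CPM, from 14174 nuclei. The levels in oligodendrocytes were 0.279, 1.67 and 4.0 CPM, and in inhibitory neurons 0.415, 1.49 and 2.07 CPM. Astrocytes held Olfr110 at 1.59 and Olfr111 at 4.77 CPM and gave no Lilrb4a UMI, which allows up to 4.77 CPM. For endothelial cells, mural cells and T cells, with 20, 35 and 15 nuclei, no UMI of the 3 genes was seen and the allowed levels reached 94.3, 50.5 and 152 CPM, so their place in the order is unknown. By pooled level, Olfr110 and Olfr111 thus ran from DAM-like over other microglia to the neurons and glia, whereas Lilrb4a ran from DAM-like microglia and macrophages, not told apart, over other microglia to the rest.

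**Figure D3:**
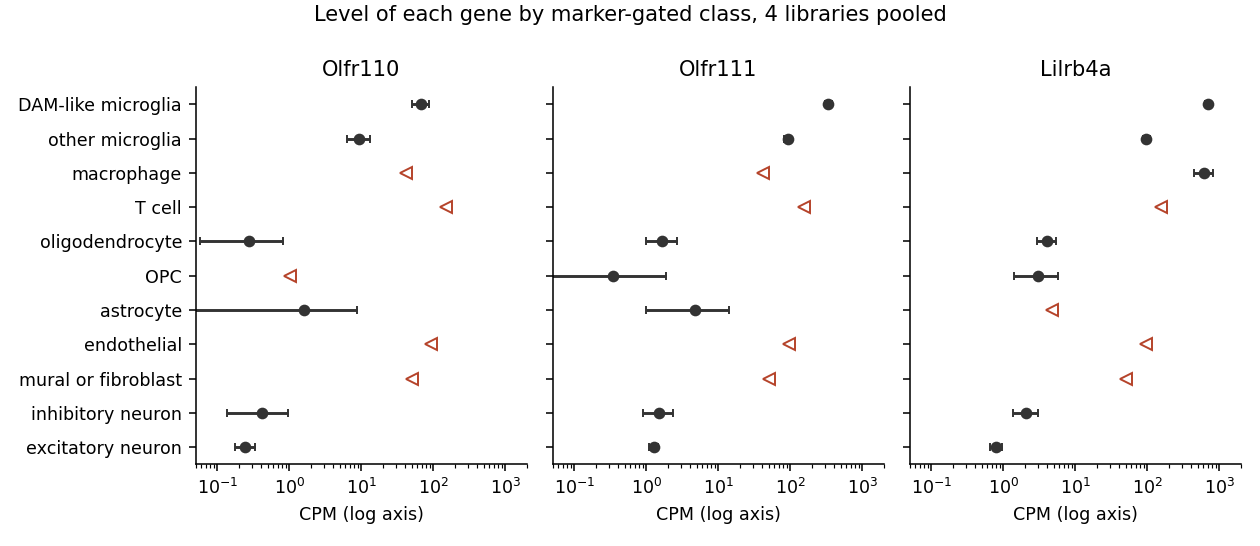
Pooled level of the 3 genes (CPM, log axis) in each gated cell class of the 4 libraries, with exact 95% Poisson intervals; open triangles mark the upper limit that 0 UMIs allow (3 UMIs of the class total). DAM-like microglia are highest for Olfr111 at 336 CPM, and Lilrb4a in macrophages (606 CPM) has an interval that includes the DAM-like level of 694 CPM.

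The few neuronal nuclei with a UMI of these genes also carried microglial transcripts. The 118 excitatory nuclei with Olfr111 had microglia markers at 1159 CPM, against 79.2 CPM in those without, and 53.4% against 7.36% of them were called doublets. For the 74 excitatory nuclei with Lilrb4a the values were 1464 against 81.1 CPM and 68.9% against 7.42%. The 28 with Olfr110 had 1110 against 88.5 CPM, and 46.4% against 7.66% doublet calls. Not every such nucleus held microglia markers, since the 6 excitatory nuclei with 2 or more Olfr110 UMIs had a median of 0 marker UMIs. The most Olfr111 UMIs in an excitatory nucleus was 19, against 8 in a microglia-like nucleus. The part of microglial RNA in the neuronal values was not tested further.

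The genes whose levels followed these patterns most closely were ranked by Pearson correlation of log2(CPM + 1) over 32 sums of a cell class and a library, among 9905 genes. These sums share libraries, and low genes follow depth, so the correlations are descriptions only. For Olfr110 the closest were Olfr111 (r = 0.969), the stress-induced transcription factor Atf3 (0.958), Ulbp1 (0.957), the tubulin Tuba1c (0.955) and the chemokine Ccl3 (0.955), itself a DAM marker of the gate. Olfr111 was closest to Ulbp1 (r = 0.977), which encodes a ligand of an activating natural killer cell receptor, to the Toll-like receptor Tlr1 (0.975), Olfr110 (0.969), Tent5c (0.964) and the myeloid transcription factor Cebpa (0.959). None of these genes gave a UMI in macrophages, where 0 UMIs allow up to 42.3 CPM. The macrophage sums of 6M-1 and 6M-2 were among the 32 sums. Presence or absence in macrophages thus entered the ranking, here and for Lilrb4a, and is not a separate result. For Lilrb4a the closest were the interferon-induced Ifi207 (0.964), Gm42962 (0.960), the chemokine Ccl6 (0.959), the cannabinoid receptor Cnr2 (0.958) and Cd48 (0.958), all of them present in macrophages, with Ifi207 there at 268 CPM and Cd48 at 197 CPM. A high rank did not require a gap between the microglial classes. Over the pooled nuclei all of the ranked genes but Cebpa were higher in DAM-like than in other microglia, to differing degrees. Atf3 stood at 45.7 against 5.87 CPM, Ulbp1 at 17.6 against 11.7 CPM and Cebpa at 22.3 against 27.2 CPM.

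Olfactory receptor transcripts in microglia were concentrated in few genes. Of 1135 Olfr rows, 92 had any UMI in microglia-like nuclei and 16 had at least 10, and Olfr110 and Olfr111 alone accounted for 39.4% of the 1702 Olfr UMIs there. Within 100 kb of them lay 9 other Olfr rows, of which 4 had at least 10 UMIs. In 3 of these 4 (Olfr112, Olfr114 and Olfr115) the DAM-like level was above the other level in all 4 libraries without overlap, the exception being Olfr113, with 8.26 against 11.7 CPM in 6M-2. Of the 10 detected Olfr rows elsewhere, 3 were higher in DAM-like microglia in all 4 libraries and 2 did not overlap. Of all 7152 genes tested, 6.78% were above without overlap, a set that Olfr114 and these 2 were too low to enter. In DAM-like microglia Olfr114 rested on 2 to 4 UMIs per library and these 2 on 1 to 4, which is near the floor.

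Olfr112, the next gene and on the opposite strand, stood at 94.3, 116, 75.0 and 78.5 CPM in DAM-like microglia, and at 25.8, 14.7, 34.8 and 14.9 CPM in other microglia of these libraries. The groups did not overlap, and it was higher by 1.85 ± 0.28 on the log2 scale (SE, n = 4 libraries, edgeR quasi-likelihood test with library as a block, adjusted p = 7.73e-06). Its coding sequence was 61.6% identical to that of Olfr111, with no identical run beyond 15 bases. Olfr115, further along, was higher by 2.09 ± 0.43 on the log2 scale (SE, adjusted p = 0.000576, same edgeR test), with 27.3 to 52.6 CPM against 2.46 to 12.6 CPM. Of all 7152 genes tested in this contrast 863 were called (12.1%), 6.38% as higher and 5.69% as lower.

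Not every gene of the region, nor every olfactory receptor of microglia, showed this. On the side of Olfr110, Olfr106-ps, Olfr107, Olfr108 and Olfr109 had 0 UMIs in microglia-like nuclei and H2-M2, a class I-like gene, had 1. Olfr114, with 15 microglial UMIs, stood at 12.9 against 1.24 CPM over the pooled nuclei, and Olfr116, with 7, at 3.52 against 1.24 CPM, too few to be tested. Olfr56, which lies elsewhere, was detected at 35.9 to 109 CPM in DAM-like and 39.3 to 103 CPM in other microglia, a log2 difference of 0.15 ± 0.22 (SE, edgeR adjusted p = 0.771). Olfr1033 likewise differed by -0.25 ± 0.36 (SE, edgeR adjusted p = 0.765).

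**Figure D4:**
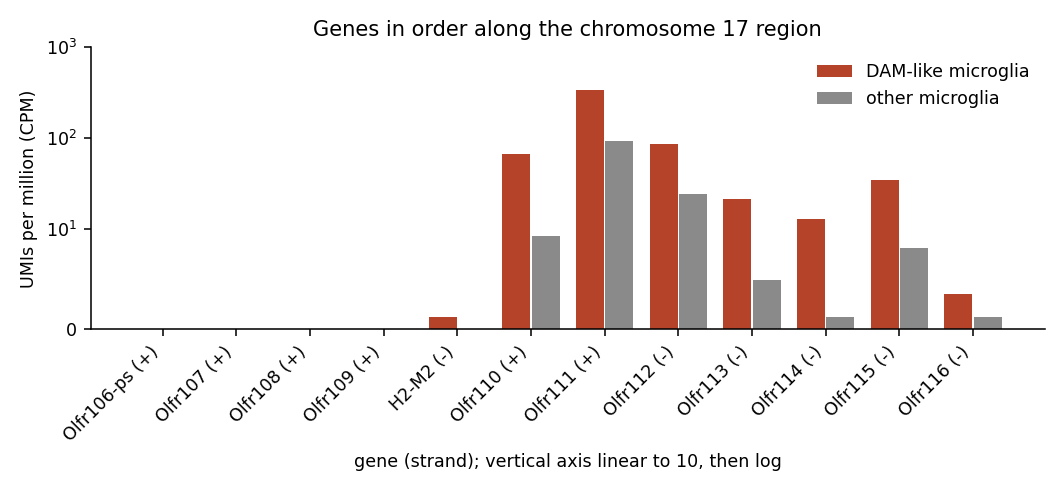
Pooled level (CPM, axis linear up to 10 and logarithmic above) of the genes within 100 kb of Olfr110 and Olfr111, in their order along chromosome 17 with their strand, in DAM-like and other microglia. The genes from Olfr106-ps to Olfr109 are at 0, whereas Olfr110, Olfr111, Olfr112 and Olfr115 reach 66.8, 336, 85.6 and 34.0 CPM in DAM-like microglia.

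Among the Lilr and Pir genes, 5 of 6 rows had a UMI in microglia-like nuclei and Lilrb4a gave 77.1% of their 1171 UMIs. Its neighbour Lilr4b stood at 35.9, 84.1, 78.4 and 53.7 CPM in DAM-like and at 2.46, 12.6, 10.9 and 7.45 CPM in other microglia, without overlap. It was higher by 2.90 ± 0.36 on the log2 scale (SE, n = 4 libraries, edgeR adjusted p = 1.64e-07), with the caution that its reads can be shared with Lilrb4a. Pirb, another ITIM receptor, stood at 21.1 CPM in DAM-like and 28.1 CPM in other microglia over the pooled nuclei, and Lilra5, an activating receptor, at 12.9 and 20.1 CPM. Both failed the low-count filter and were not tested. The antisense gene Gm40645 over the Lilrb4a locus stood at 63.1 to 120 CPM in DAM-like and 84.1 to 118 CPM in other microglia (log2 difference -0.01 ± 0.19, SE, edgeR adjusted p = 0.996), and the lincRNA Gm46224 on the far side differed by 0.18 ± 0.17 (SE, edgeR adjusted p = 0.597).

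The partners of an inhibitory receptor were examined as lists in the same edgeR comparison. Of all 7152 genes tested there, 6.38% were called higher and 5.69% lower, the shares to set beside each list below. With few genes tested per list, a single call is not read as a result about the list. These lists were chosen with earlier results of these data known, so their adjusted p values are not independent support. A list of 17 other receptors was drawn up as ITIM receptors, and whether each carries the motif was not checked. Of these, 10 could be tested. In DAM-like microglia 4 of them were higher and 1 was lower, with a median log2 difference of 0.38 against -0.0030 over all genes. The higher ones include Lilr4b, whose reads can be shared with the chosen gene Lilrb4a. The Lilr4b coding sequence is also shorter, at 912 bases against 1008 in Lilrb4a. With the motif unchecked, the 4 are not read as a count of ITIM carriers. Besides Lilr4b, the higher ones were Cd300lf, a lipid-sensing receptor, at 116 to 265 CPM against 16.8 to 85.4 CPM (1.80 ± 0.21 on the log2 scale, SE, adjusted p = 7.20e-08), the CD47 receptor Sirpa (0.69 ± 0.10, adjusted p = 2.88e-06) and the self-binding receptor Cd84 (0.68 ± 0.11, adjusted p = 1.92e-05). Cd33, a sialic acid receptor, was lower, at 147 to 174 CPM against 237 to 300 CPM (-0.71 ± 0.14, adjusted p = 0.000447). The same numbers of calls were obtained with each library left out in turn.

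Of 15 receptors and adaptors that signal by ITAMs, the opposite side of the balance, 7 could be tested, with 0 higher and 1 lower and a median log2 difference of -0.16. The lower one was the IgG receptor Fcgr3, at 49.4, 73.6, 102 and 165 CPM against 154, 160, 163 and 153 CPM (-0.64 ± 0.20, SE, edgeR adjusted p = 0.0274). In 6M-2 its DAM-like level was the higher one, and with 3M-1, 3M-2 or 6M-1 left out no gene of this list was called lower. The adaptor Tyrobp (0.39 ± 0.15, adjusted p = 0.0875) and its partner Trem2 (0.20 ± 0.14, adjusted p = 0.418), the receptor through which the later DAM stage is reached, are named for their role and after their values were seen, and did not pass the test.

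Of 14 kinases, phosphatases and adaptors that act next to such receptors, 13 could be tested, with 2 higher, 1 lower and a median log2 difference of -0.089. The Src-family kinase Fgr was higher at 160 to 211 CPM against 33.2 to 109 CPM (1.41 ± 0.22, SE, edgeR adjusted p = 1.06e-05). Ptpn6, which encodes the ITIM-binding phosphatase SHP-1, was higher by 0.68 ± 0.21 (SE, edgeR adjusted p = 0.0262). Inpp5d, the lipid phosphatase SHIP1, was lower by -0.46 ± 0.09 (SE, edgeR adjusted p = 0.000385). With 3M-2, 6M-1 or 6M-2 left out, 1 gene of this list was called higher.

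Of 5 proteins reported as ligands of Lilrb4 receptors, 4 could be tested and 3 transcripts were higher in DAM-like microglia, with a median log2 difference of 0.83. With the clustered class 1 was called higher (median 0.46), and without the library block 1. They were the adhesion molecule Alcam (1.46 ± 0.21, SE, edgeR adjusted p = 2.78e-06), the lipid carrier Apoe (0.76 ± 0.11, edgeR adjusted p = 6.64e-06) and the integrin subunit Itgb3 (0.89 ± 0.29, edgeR adjusted p = 0.0364). Apoe stood at 243, 768, 2169 and 1669 CPM in DAM-like nuclei and at 161, 257, 1372 and 1108 CPM in other microglia. Astrocytes, which make much Apoe, left summed marker levels of 243, 315, 563 and 607 CPM in DAM-like and 441, 290, 599 and 555 CPM in other microglia of the same libraries, and the part of such RNA in the Apoe values was not tested. With 3M-1, 3M-2 or 6M-1 left out 2 of the ligand transcripts were called higher.

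The machinery by which olfactory receptors signal in the nose was mostly too low to test. Of 20 genes of olfactory transduction, 6 could be tested, with 0 higher and 1 lower and a median log2 difference of 0.33. The lower one was Arrb2, a beta-arrestin that serves many receptors, at 144 to 242 CPM against 213 to 290 CPM (-0.44 ± 0.14, SE, edgeR adjusted p = 0.0309), and it was not called with any single library left out. The adenylyl cyclase Adcy3 was present at 38.7 CPM in DAM-like and 32.5 CPM in other microglia over the pooled nuclei (0.26 ± 0.34, SE, edgeR adjusted p = 0.731). Ric8b, a chaperone of the olfactory G protein, stood at 92.6 and 63.0 CPM (0.55 ± 0.23, SE, edgeR adjusted p = 0.120). Adcy3 and Ric8b are named for their role, after their values were seen. With the stricter DAM-like cut, 1 gene of this list was called higher and 0 lower. With DESeq2, and with the clustered class, 0 were called in either direction.

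The design also compared 3 with 6 months, the contrast for which the genes had not been chosen. In DAM-like microglia Olfr110, at 85.3 and 94.6 CPM at 3 months, stood at 58.0 and 49.6 CPM at 6 months, and Olfr111, at 525 and 379 CPM, stood at 201 and 310 CPM. Neither gene overlapped between the ages. Of 5411 genes tested, 19.3% had both 3-month libraries above both 6-month libraries, and 18.1% the reverse. By edgeR's quasi-likelihood test (n = 2 libraries per age) the log2 difference was -0.86 ± 0.25 for Olfr111 (SE, unadjusted p = 0.000706, adjusted p = 0.0962) and -0.69 ± 0.45 for Olfr110 (SE, unadjusted p = 0.126, adjusted p = 0.720). Neither passed the threshold of 0.05, which 29 of the 5411 genes passed (0.536%), 20 of them as higher (0.370%) and 9 as lower (0.166%) at 6 months. With libraries of the same batch paired as a block, 12 genes passed, and Olfr111 differed by -0.88 (edgeR adjusted p = 0.110). The clustered class held 108, 48, 70 and 60 nuclei, against 87, 45, 139 and 104 in the gate. With that class Olfr111 differed by -0.51 (edgeR adjusted p = 0.741) and Olfr110 by -0.31 (edgeR adjusted p = 0.968). On the gated class DESeq2 gave -0.83 for Olfr111 (DESeq2 unadjusted p = 0.0325, adjusted p = 0.999). Without 3M-2, Olfr111 fell by 1.04 on the log2 scale with an edgeR adjusted p of 0.00760. There 3M-1 was the only 3-month library and was assumed to vary like the 6-month pair, which alone gave the spread, and 99 genes were called.

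For Lilrb4a, at 602 and 936 CPM at 3 months and 706 and 669 CPM at 6 months, the DAM-like levels overlapped between the ages, with a log2 difference of -0.10 ± 0.23 (SE, edgeR adjusted p = 0.960). In other microglia it was at 50.4 and 86.2 CPM at 3 months and at 148 and 85.1 CPM at 6 months, again overlapping, whereas 22.2% of 13759 genes with at least 10 UMIs there had both 6-month libraries above both 3-month ones. Other microglia of the 6-month libraries also held more DAM marker RNA, with 515 and 443 CPM against 294 and 244 CPM at 3 months, and less homeostatic marker RNA, with 2845 and 2715 CPM against 3841 and 3688 CPM. The part of these shifts in the Lilrb4a values was not tested. In DAM-like nuclei the summed DAM markers showed no order by age, at 4289, 3827, 3714 and 4185 CPM.

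Over all microglia-like nuclei, which does not depend on the division into classes, the log2 difference between the ages was -0.61 ± 0.35 for Olfr110 (SE, edgeR adjusted p = 0.656), -0.51 ± 0.21 for Olfr111 (SE, edgeR adjusted p = 0.452) and 0.28 ± 0.20 for Lilrb4a (SE, edgeR adjusted p = 0.740). None passed the threshold, which 32 of 11132 genes did (0.287%, with 0.198% higher and 0.0898% lower at 6 months), or 160 genes with the batch pairs as a block, where Olfr111 differed by -0.50 (edgeR adjusted p = 0.311). Without 3M-2 Olfr111 fell by 0.76 on the log2 scale (edgeR adjusted p = 0.00790), again with a single 3-month library and the spread from the 6-month pair alone, a setting in which 534 genes were called. Oligodendrocyte markers in DAM-like microglia summed to 211 and 326 CPM at 3 months and 385 and 368 CPM at 6 months, and the part of such RNA in these differences was not tested.

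**Figure D5:**
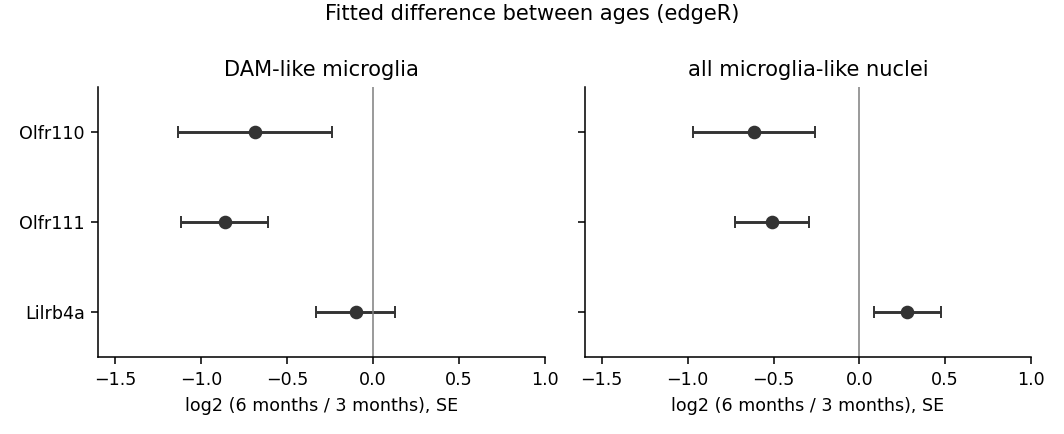
Fitted log2 difference of 6 months over 3 months for the 3 genes (edgeR, points with bars of ± 1 SE, n = 2 libraries per age), in DAM-like microglia on the left and in all microglia-like nuclei on the right. Olfr110 and Olfr111 lie below 0 in both, at -0.69 and -0.86 in DAM-like microglia, and Lilrb4a lies at -0.10 and 0.28, with no adjusted p below 0.05.

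Whether the gap between the microglial classes differed between the ages was tested directly as an interaction. For Lilrb4a the ratio between the classes, on the log2 scale, was 3.58 and 3.44 at 3 months and 2.25 and 2.97 at 6 months, and for Olfr111 it was 2.28 and 2.10 against 1.40 and 1.71. For Olfr110 it was 3.12 and 2.68 against 3.55 and 2.22. The fitted change of this gap at 6 months was -0.92 ± 0.26 for Lilrb4a (SE, edgeR unadjusted p = 0.00200, adjusted p = 0.359), -0.63 ± 0.26 for Olfr111 (SE, edgeR unadjusted p = 0.0240, adjusted p = 0.654) and -0.10 ± 0.87 for Olfr110 (SE, edgeR adjusted p = 0.990). After adjustment none passed, and 2 of 8305 genes did (0.0241%). Without 6M-2, Lilrb4a gave -1.22 with an edgeR adjusted p of 0.0250, with 6M-1 the only 6-month library and assumed to vary like the 3-month pair.

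The share of nuclei with a UMI was compared after each nucleus was thinned to 1000 UMIs, because depth differed between libraries. Nuclei with fewer UMIs were left out, which removed 2, 4, 3 and 0 DAM-like nuclei and 27, 82, 31 and 10 of all microglia-like nuclei. In DAM-like microglia Olfr111 was then detected in 34.1%, 26.8%, 14.7% and 24.0%, and without thinning in 64.4, 46.7, 29.5 and 39.4%. Both 3-month libraries were above both 6-month libraries on either scale, with a thinned mean difference of -11.1 percentage points. That difference was -6.43 without 6M-1, -7.46 without 3M-1, -15.8 without 6M-2 and -3.70 when thinned to 500 UMIs. For Olfr110 the thinned shares were 7.06, 9.76, 3.68 and 3.85%, a difference of -4.65 percentage points, and for Lilrb4a 31.8, 36.6, 42.6 and 40.4%, a difference of 7.34 percentage points, but the unthinned Lilrb4a shares of 54.0, 62.2, 56.8 and 58.7% had no such order. An exact two-sided permutation test gave p = 0.333 for each gene, the smallest value that 2 against 2 libraries allow. In all microglia-like nuclei the thinned share of Olfr111 differed by -1.37 (exact permutation p = 0.667), that of Olfr110 by -0.620 (p = 0.667) and that of Lilrb4a by 5.37 percentage points (p = 0.333).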

How the data were processed

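Nuclei were isolated from cortex, sorted by DAPI and sequenced as 3′ libraries, and the deposited UMI counts were made by the authors with Cell Ranger 7.0.0 on mm10, per the file headers and labels. Whether intronic reads were counted is not given in the sources used here. Nuclei with over 7000 genes or over 1% mitochondrial UMIs were dropped. Cell classes were gated on summed marker UMIs per 10000 (microglia at 64, DAM-like at 15 with at least 3 UMIs). The members and lists were chosen with earlier results of these data known, and the gate cuts were set after seeing the marker histograms. Doublets were called with Scrublet in scanpy 1.11.5 (3.89 to 10.5% of nuclei per library) and kept. UMIs were summed per library and class and tested with edgeR 4.0.16 (TMM, low-count filter, quasi-likelihood, Benjamini-Hochberg over all genes tested, threshold 0.05), in R 4.3.3, checked on simulated data. DESeq2 1.42.0 was an alternative. Each library is 1 mouse. SE values were back-calculated as the absolute log2 difference divided by the square root of the quasi-likelihood F statistic, and are approximate. CPM values are UMIs per 1000000 UMIs of the class.

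Named were the 3 genes, Lilr, Pir and Olfr rows with at least 10 UMIs in microglia or a place within 100 kb, up to 5 called genes a direction per list, and the 5 most correlated genes per member among genes with at least 50 microglial UMIs. Low olfactory receptor rows elsewhere are given as counts. Replicate numbers equal the batch in the labels, so libraries of the same number were paired in an alternative. Their deviations from the age means correlated at -0.0281 over genes in DAM-like and 0.0159 in all microglia. Poisson and Wilson intervals, and limits for 0 UMIs (3 UMIs), cover counting error only. Sequences came from GENCODE M21 and RefSeq, with promoter entries for 2 of 3 members, and were aligned with Biopython 1.88.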

Additional observations from a re-analysis of the deposited data

How the results depend on the processing

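Of the fitted age differences and interactions of the 3 genes under other settings, 95 kept their direction and side of the threshold, 6 reversed and 4 newly passed it. Size was not part of that count, and the Olfr111 age difference in DAM-like microglia went from -0.86 to -0.51 with the clustered class. Without the filter on nuclei the age differences were identical to the main ones, so that setting adds no check. Of the shares with a UMI by age, whose permutation test cannot pass 0.05, 45 kept their direction and 3 reversed. For Lilrb4a, the age difference in DAM-like microglia reversed to 0.11 with a stricter DAM-like cut and 0.25 with the clustered class, and its detected share there to -0.378 percentage points without thinning and -6.44 when thinned to 500 UMIs. The Olfr110 interaction reversed to 0.038 without doublets, and that of Lilrb4a passed with the clustered class (-1.35, edgeR adjusted p = 0.00984). The cause of these changes was not tested.

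Counts of genes called moved more. In DAM-like microglia the 29 genes that differed by age became 0 with DESeq2 (78 at an unadjusted p under 0.05), 11 without the low-count filter, 9 without doublets, 15 with the stricter and 6 with the looser cut, and 6 with the clustered class. In all microglia 32 became 165 without the filter. Called in DAM-like against other microglia were 863 genes, 391 with DESeq2 and 440 without the library block. The 2 interactions became 0 with DESeq2 (79 at an unadjusted p under 0.05), 7 without the filter, 0 with the stricter cut in edgeR (429 unadjusted), 7 with the looser cut, and 11 with the clustered class. With the replicate block, which pairs libraries of a batch, 12 genes differed by age in DAM-like and 160 in all microglia, and no call of the 3 genes changed.

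Leaving out 1 library at a time gave 4 to 99 genes by age in DAM-like microglia, 31 to 534 in all microglia, 569 to 663 between the classes and 0 to 20 interactions (edgeR, with 616 at an unadjusted p under 0.05 where the count was 0, without 3M-1). The DAM-like age difference ranged from -0.41 to 0.21 for Lilrb4a and from -1.17 to -0.55 for Olfr111, and that over all microglia from -0.76 to -0.18 for Olfr111. The interaction ranged from -0.67 to 0.61 for Olfr110 and from -1.22 to -0.49 for Lilrb4a, and the difference in the share of microglia with Olfr111 from -2.77 to 0.0199 percentage points. With 2 mice per age and 9 to 19 Olfr110 UMIs per DAM-like sum, depth limits the age comparison of Olfr110.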
